A study of Mus musculus with 7 samples.

Results

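Expression of 10 genes of the Wnt pathway was followed in mouse cardiac fibroblasts during the first month after birth. The genes were the ligand Wnt11, the frizzled receptors Fzd1 and Fzd2, the secreted antagonists Sfrp1, Sfrp2, Sfrp4 and Wif1, the R-spondin Rspo3, and the intracellular genes Lef1 and Axin2. They were taken by name from a table of 54735 gene symbols, and all 10 were among the 17636 genes with enough counts to be tested. Fibroblasts carried a tamoxifen-inducible Cre, MerCreMer, under the control of either the periostin gene or the Tcf21 gene (PostnMCM or Tcf21MCM), and the R26eGFP reporter, which turns a cell and its descendants green once the Cre has acted in it. Green cells were sorted from hearts of pooled male and female mice and their RNA was sequenced in bulk. Postn P7 was PostnMCM;R26eGFP at 7 days of age (n = 2 libraries), Tcf21 P30 was Tcf21MCM;R26eGFP at 30 days (n = 3) and Tcf21 P7 was Tcf21MCM;R26eGFP at 7 days (n = 2). The series asks which subpopulations of cardiac fibroblasts exist during postnatal heart growth. The reporter marks cells by whether a single gene was active when tamoxifen was given, so a group is defined by that gene's promoter and not by the cells' present state. The labels do not say when tamoxifen was given, how many animals were pooled, or whether libraries came from separate litters, so the p-values measure only the spread between these libraries, which may be technical.

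Wnt proteins are secreted lipid-modified ligands that bind frizzled receptors on the cell surface. In the canonical branch, binding stops a destruction complex built on the scaffold Axin from degrading beta-catenin, which then enters the nucleus and activates transcription with TCF and LEF factors. In the noncanonical branches, ligands such as Wnt11 and Wnt5a act through frizzled receptors and co-receptors on cell polarity and migration. Secreted frizzled-related proteins (SFRP) and Wnt inhibitory factor 1 bind Wnt ligands outside the cell, and R-spondins raise the number of frizzled receptors at the surface. Wnt signalling takes part in heart development and in the response of cardiac fibroblasts to injury.

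Libraries held 15207835 to 18519528 counts. Levels are normalised CPM, the counts of each library divided by its size after TMM correction (a trimmed mean of log ratios). A gene was called higher or lower where its p-value in edgeR's quasi-likelihood test, with Benjamini-Hochberg adjustment across the 17636 genes, was under 0.05. Log2 fold changes are given with their standard error (SE). Fibroblast markers (12 genes) gave sums of 39361 and 48419 CPM in Postn P7, 40286, 50661 and 46600 in Tcf21 P30 and 54077 and 54291 in Tcf21 P7. Between the ages 3 were called higher and 4 lower in Tcf21 P30. In Postn P7, 4 were higher and 5 lower against Tcf21 P30, and 0 were called against Tcf21 P7. Thy1 was at only 7.24 to 17.0 CPM. Pdgfra was at 659.9 and 816 CPM in the Postn P7 libraries, 1056, 1306 and 1258 CPM in Tcf21 P30 and 856 and 853 CPM in Tcf21 P7. Tcf21 itself was present in all groups, with 343 and 428 CPM in the Postn P7 libraries, 271, 391 and 352 CPM in Tcf21 P30 and 347 and 354 CPM in Tcf21 P7. Postn itself was at 2995 and 3695 CPM in the Postn P7 libraries, against 4258 and 4549 CPM in those of Tcf21 P7, and both Postn P7 libraries were the lower ones. In Tcf21 P30 it was at 756, 907 and 821 CPM. The first libraries of Postn P7 and of Tcf21 P30 stood apart from the other libraries of their groups in summed endothelial markers (12 genes). These were 1976 and 1292 CPM in the Postn P7 libraries, 4677, 1432 and 1678 CPM in Tcf21 P30 and 1547 and 1368 CPM in Tcf21 P7. With n = 2, Postn P7 cannot itself show which of its libraries is the unusual one. Each comparison was repeated without both first libraries, a choice made after the data were seen.

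All 10 genes are protein coding in the GENCODE M21 annotation of GRCm38. Wnt11 lies on chromosome 7, 98835112 to 98855195, plus strand. Fzd1 lies on chromosome 5, 4753839 to 4758035, minus strand, and Fzd2 on chromosome 11, 102604396 to 102608058, plus strand. Sfrp1 lies on chromosome 8, 23411502 to 23449632, plus strand, Sfrp2 on chromosome 3, 83766321 to 83774316, plus strand, and Sfrp4 on chromosome 13, 19623104 to 19632994, plus strand. Wif1 lies on chromosome 10, 121033960 to 121100650, plus strand, and Rspo3 on chromosome 10, 29452416 to 29535867, minus strand. Lef1 lies on chromosome 3, 131110471 to 131224356, plus strand, and Axin2 on chromosome 11, 108920349 to 108950783, plus strand. Where a gene on the opposite strand overlaps a member, the reads of the pair cannot be told apart, since no strand setting is given in the sources used here. Sfrp2 overlaps Gm26771, which held 420 to 1792 counts. Lef1 overlaps Gm43352 (1 to 37 counts), Rspo3 overlaps Gm48159 (1 to 25 counts), Axin2 overlaps Gm11670 (0 to 8 counts) and Wnt11 overlaps Gm8398 (0 to 2 counts).

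RefSeq promoter windows on GRCm38.p6, from 250 bases before to 50 bases after the annotated start, were matched for 6 of the 10 members, in 10 windows. The 4 windows shown are those at the first start of Wnt11, which had the largest fitted change with age, of Wif1 and Sfrp2, which also changed with age, and of Axin2, a widely used target gene of beta-catenin. Capitals mark a match to the TCF and LEF recognition letters CTTTGAT, read here on the opposite strand, and all 4 windows are written along the plus strand, which is the gene's own.
Wnt11, chr7:98834862-98835161: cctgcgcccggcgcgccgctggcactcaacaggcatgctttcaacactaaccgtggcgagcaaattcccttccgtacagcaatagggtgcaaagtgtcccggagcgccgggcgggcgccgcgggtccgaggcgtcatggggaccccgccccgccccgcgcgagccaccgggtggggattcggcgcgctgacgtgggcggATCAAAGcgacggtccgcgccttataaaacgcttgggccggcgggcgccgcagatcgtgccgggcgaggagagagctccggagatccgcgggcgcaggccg
Wif1, chr10:121033754-121034053: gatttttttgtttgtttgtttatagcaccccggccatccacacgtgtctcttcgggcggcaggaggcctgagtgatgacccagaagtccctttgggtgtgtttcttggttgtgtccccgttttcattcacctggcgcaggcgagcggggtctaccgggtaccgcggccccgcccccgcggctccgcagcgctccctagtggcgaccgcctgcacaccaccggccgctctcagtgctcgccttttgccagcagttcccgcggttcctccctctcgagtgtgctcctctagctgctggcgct
Sfrp2, chr3:83766071-83766370: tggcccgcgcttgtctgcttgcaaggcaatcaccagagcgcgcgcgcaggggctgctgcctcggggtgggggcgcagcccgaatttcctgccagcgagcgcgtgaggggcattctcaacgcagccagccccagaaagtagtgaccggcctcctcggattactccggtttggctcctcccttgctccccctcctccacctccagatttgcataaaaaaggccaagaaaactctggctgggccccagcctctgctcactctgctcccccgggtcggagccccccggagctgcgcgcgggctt
Axin2, chr11:108920099-108920398: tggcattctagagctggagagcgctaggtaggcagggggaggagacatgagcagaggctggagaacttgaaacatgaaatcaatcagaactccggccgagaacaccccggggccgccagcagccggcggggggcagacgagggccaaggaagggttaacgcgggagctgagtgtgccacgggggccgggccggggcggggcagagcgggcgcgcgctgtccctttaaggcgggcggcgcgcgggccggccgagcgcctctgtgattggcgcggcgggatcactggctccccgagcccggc
The 3 motifs, which share the letters CTTTG, were searched on both strands. CTTTGAT was found in 3.73% of all 32851 windows, CTTTGTT in 5.85% and CTTTGAA in 5.14%, and 13.9% of windows held any of them. Of the members' 10 windows, 1 held a match, that of Wnt11, whose leftmost base is at position -51 from the start. A match describes the letters only, and a window without one says nothing of the factor. The 4 windows shown held 71.3% G and C for Wnt11, 70.0% for Axin2, 66.0% for Sfrp2 and 63.0% for Wif1. The members' other windows held 59.3% for the second start of Wnt11, 54.0% for Fzd1 and 43.7 to 67.3% for the 4 starts of Lef1, and the quartiles over all windows were 45.7% and 61.7%. The Wnt11 window shown had 45 CpG dinucleotides, against a median of 7 over all windows.

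Levels of different genes were compared only per kilobase of annotated exon (GENCODE M21). On that scale Sfrp1 and Sfrp2 were the most abundant of the 10 in every group. Sfrp1 reached 125 ± 20.7 CPM per kb in Postn P7, 66.3 ± 8.54 in Tcf21 P30 and 111 ± 0.171 in Tcf21 P7 (SD, n = 2, 3 and 2). Sfrp2 reached 122 ± 36.4 CPM per kb in Postn P7, 62.8 ± 8.80 in Tcf21 P30 and 209 ± 10.9 in Tcf21 P7. Only in Tcf21 P7 did the libraries of these 2 genes lie apart, with Sfrp2 above Sfrp1. The receptor Fzd1 came next, at 33.4, 30.2 and 40.9 CPM per kb, and Fzd2 at 24.5, 14.6 and 34.2 CPM per kb, in Postn P7, Tcf21 P30 and Tcf21 P7. Wif1 was at 9.66, 21.8 and 11.5 CPM per kb in the same order, and Wnt11 at 4.74, 15.6 and 2.82. Sfrp4 stood at 2.15, 3.85 and 0.754 CPM per kb. Rspo3, Lef1 and Axin2 stayed under 1 CPM per kb in all 3 groups, so their values rest on few reads.

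**Figure D1:**
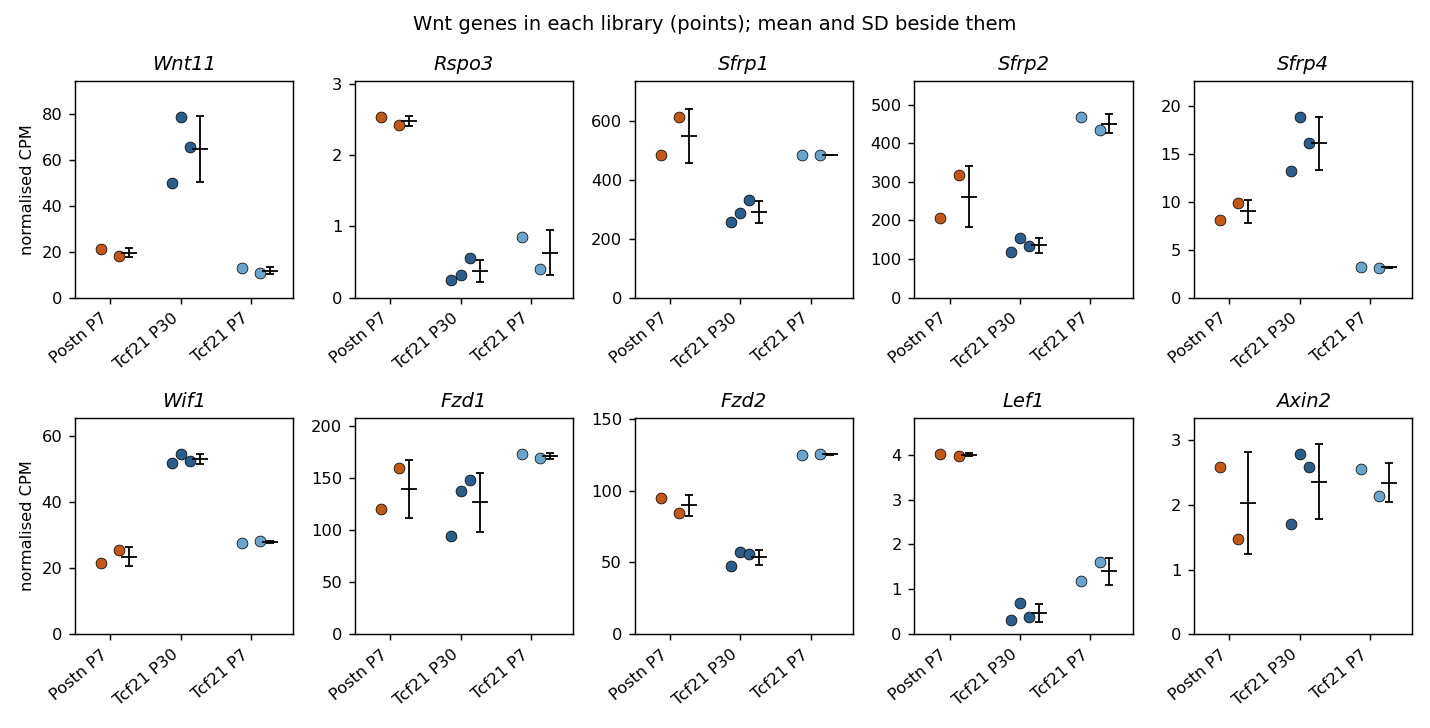
Normalised CPM (vertical axis, linear, from 0) of the 10 Wnt genes in each of the 7 libraries, by group; points are libraries, and the bar beside them is the mean with its SD (n = 2, 3 and 2). The 3 Tcf21 P30 libraries lie above the others for Wnt11, Sfrp4 and Wif1 and below them for Sfrp1, Sfrp2 and Fzd2, and the 2 Postn P7 libraries lie above the others for Rspo3 and Lef1.

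The comparison of ages asks how Tcf21-traced fibroblasts differ between 30 and 7 days. Of the 10 Wnt genes, 7 were called, 3 higher and 4 lower in Tcf21 P30, where 31.8% of all genes tested were called (16.7% higher and 15% lower). Wnt11, Sfrp4 and Wif1 were higher at 30 days, and Sfrp1, Sfrp2, Fzd2 and Lef1 were lower. The antagonists moved both ways, 2 up and 2 down. The members' median log2 fold change was -0.58, against 0.03 for all genes tested and -0.22 for 81 other Wnt genes. The libraries of the groups did not overlap for 8 of the 10, against 61.8% of all genes. In bulk RNA, fewer cells with a transcript and less transcript per cell cannot be told apart. The calls of Sfrp1 and Lef1 were lost when certain single libraries were left out, as given below. Without the 2 first libraries that stood apart, 8 members were called.

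Several marker sums moved with the groups. Macrophage markers (12 genes) gave sums of 340.2 and 471 CPM in the Postn P7 libraries, 620.0, 420.3 and 437 CPM in Tcf21 P30 and 1158 and 1168 CPM in Tcf21 P7, and 8 of the 12 were called lower in Postn P7 and 8 lower in Tcf21 P30, each against Tcf21 P7. The nuclear transcripts Malat1, Neat1, Kcnq1ot1 and Meg3 gave sums of 1272 and 1494 CPM in the Postn P7 libraries, 1654, 1712 and 1579.6 CPM in Tcf21 P30 and 379 and 372 CPM in Tcf21 P7, with 4 of 4 called higher in Postn P7 and 3 of 4 in Tcf21 P30. Mitosis genes (10) gave sums of 426 and 358 CPM in the Postn P7 libraries, 96.2, 68.0 and 82.0 CPM in Tcf21 P30 and 245 and 254 CPM in Tcf21 P7, with 4 higher in Postn P7 and 9 lower in Tcf21 P30. Pericyte markers (10 genes) gave sums of 2364 and 1744 CPM in the Postn P7 libraries, 1674, 934 and 980.0 CPM in Tcf21 P30 and 1220.5 and 1162 CPM in Tcf21 P7, with 1 of 10 called higher in Postn P7 and 1 in Tcf21 P30. Schwann or glia markers (8 genes, 6 tested) gave sums of 27.4 and 45.2 CPM in the Postn P7 libraries, 57.1, 48.7 and 50.9 CPM in Tcf21 P30 and 16.9 and 14.7 CPM in Tcf21 P7, with 2 called higher in Postn P7 and 2 in Tcf21 P30. Epicardial or mesothelial markers (8 genes) differed between libraries within groups, with sums of 69.0 and 6.47 CPM in the Postn P7 libraries, 18.2, 2.09 and 1.98 CPM in Tcf21 P30 and 25.3 and 21.6 CPM in Tcf21 P7, and none was called. Cardiomyocyte markers (10 genes) gave sums of 1531 and 629 CPM in the Postn P7 libraries. In Tcf21 P30 they gave 1330, 716 and 751 CPM, and in Tcf21 P7 1238 and 1085 CPM. Smooth muscle markers (8 genes) gave sums of 1143 and 976 CPM in the Postn P7 libraries. In Tcf21 P30 they gave 1215, 603 and 601 CPM, and in Tcf21 P7 947 and 970 CPM. None of either list was called. The part of all these markers in the Wnt results was not tested.

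Wnt11, a ligand best known for noncanonical signalling, had the largest fitted increase with age of the 10, close to that of Sfrp4. It stood at 49.7, 78.6 and 65.6 CPM in Tcf21 P30, against 12.8 and 10.6 CPM in Tcf21 P7. Every 30-day library was above both 7-day libraries, and Tcf21 P30 replicate 1 was the lowest of them at 30 days. The fold change was 5.53, a log2 fold change of 2.47 ± 0.21 (adjusted p = 0.00018). The call held in all 17 alternatives, with log2 values between 2.30 and 2.63 when libraries were left out.

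Sfrp4, a secreted frizzled-related protein of low abundance here, changed by a similar factor. It had 13.3, 18.8 and 16.2 CPM in Tcf21 P30, against 3.18 and 3.12 CPM in Tcf21 P7, with no overlap. Its log2 fold change was 2.35 ± 0.22 (adjusted p = 0.00021), or 5.10-fold. Wif1, which binds Wnt ligands through its own WIF domain, had 51.9, 54.5 and 52.3 CPM in Tcf21 P30, against 27.6 and 28.1 CPM in Tcf21 P7. The 30-day libraries were close to each other and all higher, with a log2 fold change of 0.92 ± 0.11 (adjusted p = 0.00067).

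Sfrp2 showed the largest decrease among the antagonists. Its level was 117, 155 and 134 CPM in Tcf21 P30, against 468 and 434 CPM in Tcf21 P7. All 30-day libraries were lower, 3.34-fold on the fitted scale (log2 fold change -1.74 ± 0.19, adjusted p = 0.00057). The overlapping gene Gm26771 held between 20.7 and 23.1% of the Sfrp2 count in every library and so moved with it. Sfrp1 had 255, 287 and 329 CPM in Tcf21 P30, against 483 and 484 CPM in Tcf21 P7. The groups did not overlap and the log2 fold change was -0.74 ± 0.14 (adjusted p = 0.0054); without Tcf21 P7 replicate 2 the adjusted p was 0.051.

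Of the receptors, Fzd2 fell with age and Fzd1 did not pass the test. Fzd2 had 47.3, 57.1 and 56.1 CPM in Tcf21 P30, against 125 and 126 CPM in Tcf21 P7. The libraries of the 2 ages lay far apart, with a log2 fold change of -1.23 ± 0.11 (adjusted p = 0.00017). Fzd1 had 94.5, 138 and 148 CPM in Tcf21 P30, against 174 and 169 CPM in Tcf21 P7. Its 30-day libraries were all lower, but Tcf21 P30 replicate 1 was well below the other two. Its log2 fold change of -0.43 ± 0.20 had an adjusted p of 0.14, which was 0.023 (log2 fold change -0.26) without the 2 first libraries that stood apart.

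Lef1, a transcription factor through which beta-catenin acts, was counted by few reads. Its counts in Tcf21 P30 were too few for it to be tested through that group. So its call is that of a gene tested only through the 7-day groups, where it was high. It had 5, 11 and 7 counts in the Tcf21 P30 libraries, against 21 and 28 counts in Tcf21 P7. These are 0.316, 0.698 and 0.385 CPM in Tcf21 P30 and 1.19 and 1.62 CPM in Tcf21 P7, and the groups did not overlap. The log2 fold change was -1.58 ± 0.42 (adjusted p = 0.023). The call was lost without Tcf21 P7 replicate 1 (adjusted p = 0.067), without Tcf21 P7 replicate 2 (0.15) and without Tcf21 P30 replicate 3 (0.077). Gm43352, on the opposite strand, had 1, 4 and 4 counts in the Tcf21 P30 libraries and 12 and 15 in those of Tcf21 P7.

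Axin2, a scaffold of the destruction complex that is itself switched on by beta-catenin, showed no change that the test could detect. It had 1.70, 2.79 and 2.58 CPM in Tcf21 P30, against 2.56 and 2.14 CPM in Tcf21 P7. The groups overlapped, and the log2 fold change was 0.01 ± 0.37 (adjusted p = 0.99). Rspo3 was also not called. It had 4, 5 and 10 counts in the Tcf21 P30 libraries, against 15 and 7 counts in those of Tcf21 P7. The log2 fold change was -0.73 ± 0.54 (adjusted p = 0.34), and the libraries of the groups overlapped.

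**Figure D2:**
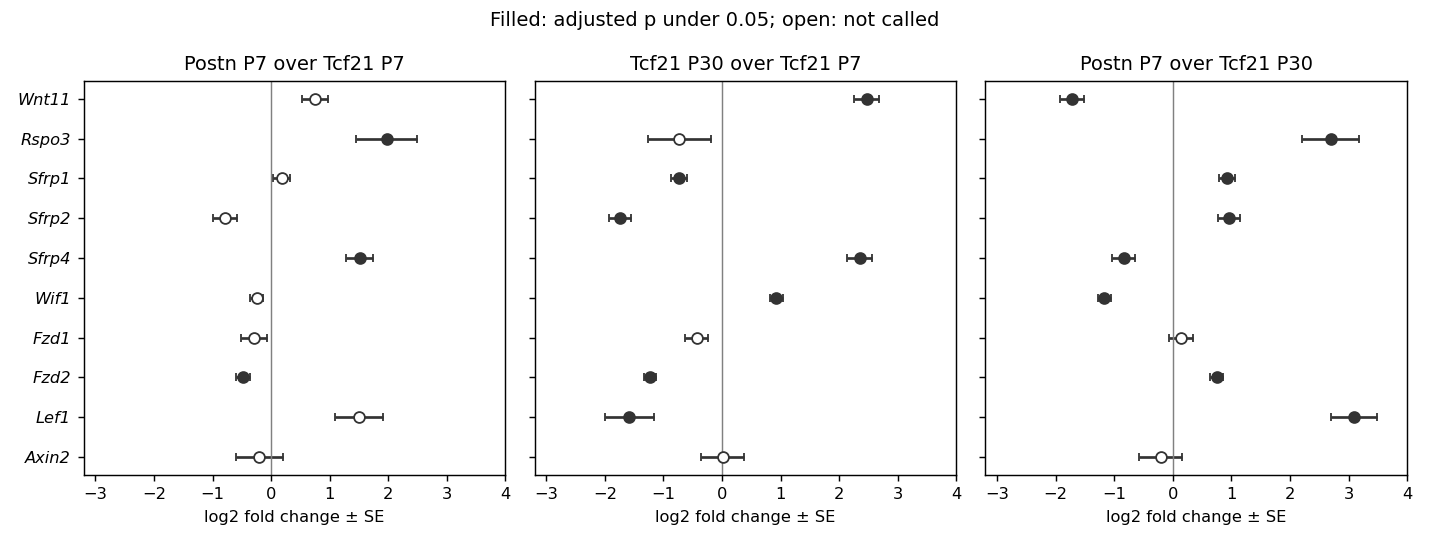
Log2 fold change of each of the 10 Wnt genes in the 3 comparisons (horizontal axis), with bars for the SE; filled points have an adjusted p under 0.05 in edgeR's quasi-likelihood test. Among the filled points, 3 are in the left panel (Postn P7 over Tcf21 P7), 7 in the middle panel (Tcf21 P30 over Tcf21 P7) and 8 in the right panel (Postn P7 over Tcf21 P30).

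The comparison of lineages asks how Postn-traced fibroblasts differ from Tcf21-traced fibroblasts at 7 days. Lineage here means only the gene that drove the Cre, and whether the groups share cells was not tested. Postn P7 had more of the antagonist Sfrp4 and of the R-spondin Rspo3, and less of the receptor Fzd2. These 3 calls of 10 (2 higher, 1 lower) stood beside 12% of all genes tested (6.52% higher and 5.49% lower). Among the 3, Rspo3 had enough counts to be tested only through Postn P7, where it was high. Scaled by library size alone (a shift of 0.11 in the median log2 fold change), 4 members were called higher and 0 lower, and over all genes 1741 higher and 472 lower, against 1149 and 969 with TMM. Libraries of the groups did not overlap for 8 of the 10, a share to be read against 64% of all genes, since 2 libraries face 2. The median log2 fold change was -0.01 for the members, 0.00 for all genes and -0.02 for the 81 other Wnt genes. Chi-square per degree of freedom between 2 libraries of a group, a measure of how far their counts differ, was 3.43 in Tcf21 P7. It was 18.4 in Postn P7 and 9.90 to 38.1 in Tcf21 P30, so the Tcf21 P7 pair was the most alike. This comparison used the same Tcf21 P7 libraries as that of the ages. Without either of them none of the 10 was called, and over all genes the calls dropped to 118 without replicate 1 and 111 without replicate 2. A single member was called without Postn P7 replicate 1 and likewise without Tcf21 P30 replicate 3, and 6 were called without Tcf21 P30 replicate 1 or without both first libraries that stood apart. At an unadjusted p under 0.05, 6 of the 10 passed with all libraries.

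Sfrp4 was the member with the smallest p between the lineages. It had 8.14 and 9.86 CPM in the Postn P7 libraries, against 3.18 and 3.12 CPM in those of Tcf21 P7. Both Postn P7 libraries were more than 2-fold higher than both Tcf21 P7 libraries. The log2 fold change was 1.51 ± 0.23, or 2.85-fold (adjusted p = 0.0096). With either Tcf21 P7 library left out the value was 1.54 or 1.51 and the adjusted p 0.094.

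Rspo3, a secreted amplifier of Wnt signals, had its highest counts in Postn P7. With the Tcf21-traced groups alone it did not have enough counts to be tested. So its call is that of a gene tested only through the group where it was high. It had 48 and 38 counts in the Postn P7 libraries, against 15 and 7 counts in those of Tcf21 P7. In normalised terms these are 2.54 and 2.43 CPM in the Postn P7 libraries and 0.853 and 0.404 CPM in those of Tcf21 P7. The log2 fold change was 1.97 ± 0.53 (adjusted p = 0.048). The direction was the same with any library left out (1.55 to 2.61), but the call was lost without either Postn P7 library (adjusted p = 0.13 without replicate 1 and 0.14 without replicate 2) and without Tcf21 P7 replicate 1 (0.14) or replicate 2 (0.26). It was also lost without Tcf21 P30 replicate 2 (0.059) or replicate 3 (0.066), which enter only the estimate of spread, without both first libraries that stood apart (0.053) and with DESeq2 (0.071). The opposite-strand gene Gm48159 had 25 and 21 counts in the Postn P7 libraries and 4 and 9 in the Tcf21 P7 libraries.

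Fzd2 had 95.0 and 84.4 CPM in the Postn P7 libraries, against 125 and 126 CPM in those of Tcf21 P7. Both Postn P7 libraries were lower, by a log2 fold change of -0.48 ± 0.12 (adjusted p = 0.038). The call was lost when any single library was left out, except Tcf21 P30 replicate 1. The adjusted p was 0.063 without Postn P7 replicate 1, 0.15 without Postn P7 replicate 2, 0.23 without Tcf21 P7 replicate 1, 0.24 without Tcf21 P7 replicate 2, 0.053 without Tcf21 P30 replicate 2 and 0.095 without Tcf21 P30 replicate 3. Scaling mattered too: with upper-quartile factors the adjusted p was 0.069, and with library size alone it was 0.084.

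Lef1, Sfrp2 and Wnt11 lay just outside the threshold. Lef1 had 76 and 62 counts in the Postn P7 libraries, against 21 and 28 counts in those of Tcf21 P7, or 4.02 and 3.97 CPM in the Postn P7 libraries and 1.19 and 1.62 CPM in those of Tcf21 P7. Its log2 fold change was 1.50 ± 0.41, with an adjusted p of 0.0504; without Tcf21 P30 replicate 1 it was 0.027 and without Tcf21 P30 replicate 2 0.04. Sfrp2 had 206 and 317 CPM in the Postn P7 libraries, against 468 and 434 CPM in those of Tcf21 P7. Its log2 fold change of -0.78 ± 0.21 had an adjusted p of 0.0503; the value was -1.14 (adjusted p = 0.03) without Postn P7 replicate 2, and the adjusted p was 0.032 without Tcf21 P30 replicate 1. Beside Lef1, Gm43352 had 37 and 32 counts in Postn P7 and 12 and 15 in Tcf21 P7. The 2 Postn P7 libraries of Sfrp2 differed more from each other than the Tcf21 P7 libraries did. Wnt11 had 21.0 and 18.2 CPM in the Postn P7 libraries, against 12.8 and 10.6 CPM in those of Tcf21 P7. Its log2 fold change was 0.75 ± 0.22 (adjusted p = 0.063), with 0.015 without Tcf21 P30 replicate 1 and 0.046 without Tcf21 P30 replicate 2. For none of the 3 does the missed threshold show that the lineages were alike.

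Sfrp1, Wif1, Fzd1 and Axin2 were not called between the lineages. Sfrp1 had 484 and 612 CPM in the Postn P7 libraries, against 483 and 484 CPM in those of Tcf21 P7, and the log2 fold change was 0.18 ± 0.15 (adjusted p = 0.47). Without the 2 first libraries that stood apart it was 0.34 (adjusted p = 0.033), and without Postn P7 replicate 2 it was -0.01. Wif1 had 21.4 and 25.5 CPM in the Postn P7 libraries, against 27.6 and 28.1 CPM in those of Tcf21 P7, both slightly lower in Postn P7 (log2 fold change -0.25 ± 0.12, adjusted p = 0.2). Fzd1 had 120.4 and 159.8 CPM in the Postn P7 libraries, against 174 and 169 CPM in those of Tcf21 P7 (log2 fold change -0.29 ± 0.22, adjusted p = 0.42). Axin2 had 2.59 and 1.47 CPM in the Postn P7 libraries, against 2.56 and 2.14 CPM in those of Tcf21 P7, and the libraries overlapped (log2 fold change -0.20 ± 0.40, adjusted p = 0.78). The sign for Axin2 turned without Postn P7 replicate 2, to 0.13.

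Postn P7 and Tcf21 P30 differ in lineage and age at once, and the comparison shares its libraries with both others. It sets the Postn-traced cells of 7 days beside the older Tcf21-traced cells. Of the 10 genes, 8 were called, 5 higher and 3 lower in Postn P7, beside 24.2% of all genes (11.7% higher and 12.5% lower). With library size alone all genes split 2802 higher and 1725 lower, against 2070 and 2206 with TMM. The libraries did not overlap for 8 of 10, against 50.6% of all genes. Without both first libraries that stood apart 8 members were called as well. Lef1 had the largest difference, with 4.02 and 3.97 CPM in the Postn P7 libraries against 0.316, 0.698 and 0.385 CPM in Tcf21 P30, an 8.50-fold difference (log2 fold change 3.09 ± 0.40, adjusted p = 0.001). Rspo3 followed, with 2.54 and 2.43 CPM in the Postn P7 libraries against 0.252, 0.317 and 0.550 CPM in Tcf21 P30 (6.48-fold, log2 fold change 2.70 ± 0.49, adjusted p = 0.0054). Both kept their calls in all 17 alternatives, but neither had enough counts in Tcf21 P30 to be tested through that group. Rspo3 was tested only through Postn P7 and Lef1 only through the 7-day groups, where each was high. The antagonists Sfrp1 and Sfrp2 and the receptor Fzd2 were higher in Postn P7, with log2 fold changes of 0.92 ± 0.14, 0.95 ± 0.19 and 0.75 ± 0.11. Wnt11, Wif1 and Sfrp4 were lower in Postn P7, with log2 fold changes of -1.72 ± 0.20, -1.17 ± 0.11 and -0.84 ± 0.20. Of these, the call of Sfrp4 (adjusted p = 0.017) was lost without Postn P7 replicate 1 (0.11), Tcf21 P30 replicate 2 (0.058) or Tcf21 P30 replicate 3 (0.061). Fzd1 and Axin2 were not called, with log2 fold changes of 0.14 ± 0.20 (adjusted p = 0.67) and -0.21 ± 0.37 (adjusted p = 0.74), and their groups overlapped. For Fzd1 the sign turned without Postn P7 replicate 2 (-0.08) and without Tcf21 P30 replicate 1 (-0.03), and for Axin2 without Postn P7 replicate 2 (0.13).

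The make-up of each gene family, in CPM per kb of exon, was described per library. Among the 5 secreted frizzled-related protein genes, Sfrp2 made up 41.2 to 46.5% of the sum in Postn P7, 30.8 to 35.4% in Tcf21 P30 and 58.7 to 61.0% in Tcf21 P7. Sfrp1 made up 44.1 to 47.5% in Postn P7, 32.2 to 37.4% in Tcf21 P30 and 31.0 to 32.2% in Tcf21 P7. Frzb, a further member of that family, took 8.53 to 10.5%, 29.1 to 30.2% and 7.72 to 8.92% in the same groups. The single most abundant gene of the family was thus Sfrp2 in Tcf21 P7, while in Tcf21 P30 Sfrp1, Sfrp2 and Frzb held nearly equal shares. The family's summed level was 233 and 317 CPM per kb in Postn P7, 164, 203 and 201 in Tcf21 P30 and 356 and 344 in Tcf21 P7, so the youngest Tcf21-traced cells had the highest and the oldest the lowest sums. Sfrp4 never exceeded 2.22% of the sum, whatever its fold change.

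Among 19 Wnt ligand genes, Wnt11 took 10.4 to 12.6% of the summed level in Postn P7, 29.6 to 36.1% in Tcf21 P30 and 5.88 to 6.76% in Tcf21 P7. Wnt9a took 32.9 to 39.2% in Postn P7, 31.9 to 35.2% in Tcf21 P30 and 43.2 to 44.3% in Tcf21 P7. Wnt11 shared the first place with Wnt9a at 30 days and was behind Wnt9a, Wnt5b and Wnt5a in all 7-day libraries. The summed level of the ligands was 40.3 and 42.3 CPM per kb in Postn P7, 40.5, 52.7 and 53.0 in Tcf21 P30 and 45.8 and 43.4 in Tcf21 P7, and these ranges overlapped between Tcf21 P30 and each 7-day group. In the frizzled family Fzd1 held 22.6 to 27.3%, 23.9 to 34.8% and 26.9 to 27.1% of the summed level in Postn P7, Tcf21 P30 and Tcf21 P7, and Fzd2 held 16.5 to 20.5%, 13.7 to 15.1% and 22.2 to 23.1%. Rspo3 was 37.0 to 40.2% of the R-spondin sum in Postn P7, 5.03 to 8.93% in Tcf21 P30 and 7.37 to 21.3% in Tcf21 P7. Rspo1 held a larger share than Rspo3, but in Postn P7 replicate 2 they were nearly equal (40.5% and 40.2%, from 24 and 38 counts). Lef1 was the smallest of the 4 TCF and LEF genes, at 1.20 to 1.47%, 0.137 to 0.237% and 0.371 to 0.532% of their sum in the same groups, while Tcf7l1 made up 68.0 to 69.3%, 75.4 to 77.4% and 75.7 to 77.0%.

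**Figure D3:**
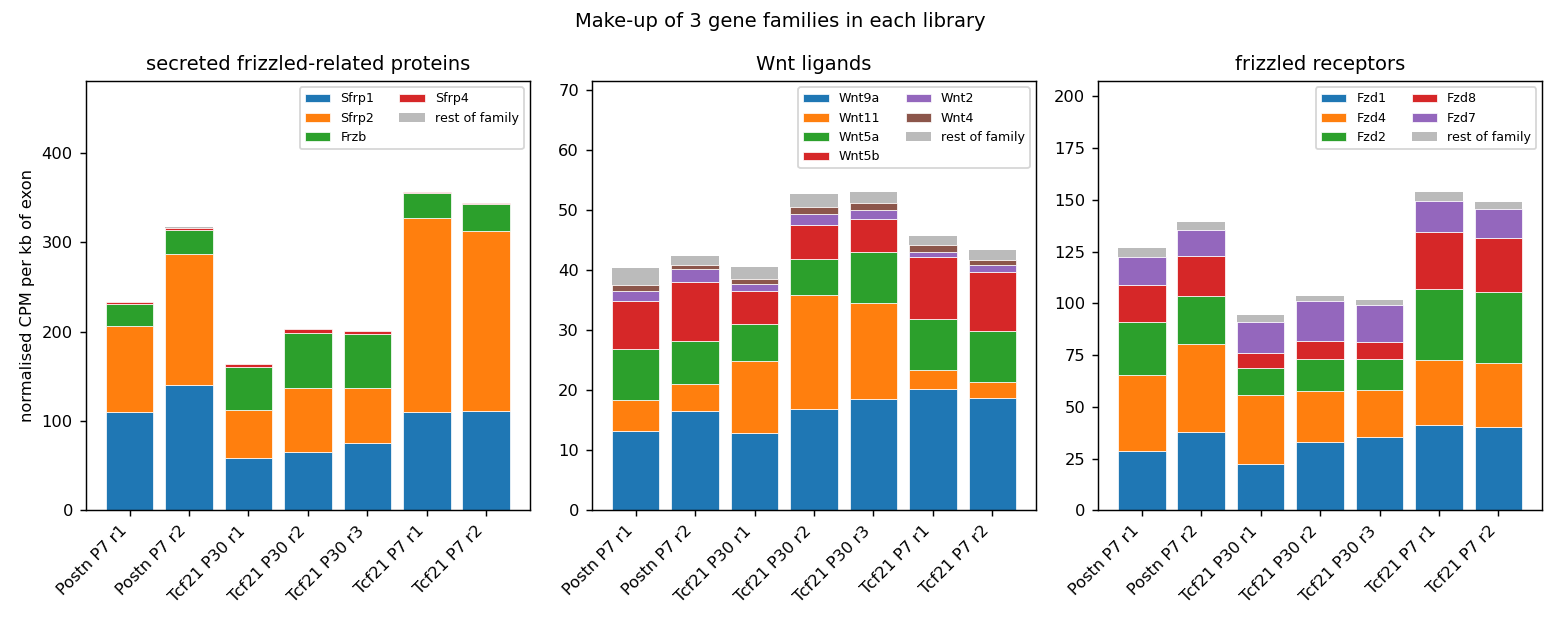
Summed level of 3 gene families in each of the 7 libraries (vertical axis, normalised CPM per kb of exon; bars start at 0), split into the genes named in the legend and the rest of the family. Wnt11 fills 29.6 to 36.1% of the ligand bar in the Tcf21 P30 libraries and 5.88 to 6.76% in the Tcf21 P7 libraries.

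The other Wnt genes were a list of 98 genes by role, of which 81 were tested. In the comparison of ages, 30 of them were called, 7 higher and 23 lower in Tcf21 P30, and 18 were called without Tcf21 P7 replicate 2. The total of 37.0% stands beside 31.8% of all genes tested (16.7% higher and 15% lower). Targets and feedback genes had the highest share of calls of any role, with 2 higher and 6 lower of 10 tested. Wisp1, a matricellular target, had 2.83 ± 0.827 CPM in Tcf21 P30 and 20.5 ± 0.954 CPM in Tcf21 P7 (SD, n = 3 and 2; log2 fold change -2.85 ± 0.22, adjusted p = 9.6e-05). Tnfrsf19, a receptor reported as a target of beta-catenin, had 3.05 ± 0.417 CPM in Tcf21 P30 and 15.6 ± 0.399 CPM in Tcf21 P7 (log2 fold change -2.36 ± 0.16, adjusted p = 5.9e-05). Myc, a growth-promoting transcription factor, was higher, with 102 ± 23.4 CPM in Tcf21 P30 and 51.2 ± 2.49 CPM in Tcf21 P7 (log2 fold change 1.00 ± 0.29, adjusted p = 0.044).

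Of 13 other receptors, 4 were lower and none higher at 30 days. Ptk7, a pseudokinase co-receptor of the polarity branch, had 44.0 ± 3.50 CPM in Tcf21 P30 and 217 ± 11.5 CPM in Tcf21 P7 (log2 fold change -2.30 ± 0.12, adjusted p = 2.7e-05). Fzd8 had 48.1 ± 4.55 CPM in Tcf21 P30 and 162 ± 7.86 CPM in Tcf21 P7, and Fzd3 6.25 ± 0.579 CPM in Tcf21 P30 and 18.6 ± 0.766 CPM in Tcf21 P7. In the polarity group, 3 of 7 were lower, Vangl2 (-0.80 ± 0.11), Prickle1 (-0.57 ± 0.13) and Daam1 (-0.54 ± 0.09), given as log2 fold changes. Among ligands, 1 of 11 was higher and 1 lower. The higher ligand, under 5 CPM and so not named, had 10, 11 and 23 counts in Tcf21 P30 and 2 and 0 in Tcf21 P7. It had enough counts to be tested only through Tcf21 P30, where it was high. The lower ligand was Wnt5b, a noncanonical ligand, with 14.5 ± 0.171 CPM in Tcf21 P30 and 26.5 ± 0.971 CPM in Tcf21 P7. The R-spondin receptor Lgr4 was lower (log2 fold change -0.64 ± 0.11), 1 of 2 called in an R-spondin group of 7. The other gene called there had 4, 1 and 0 counts in Tcf21 P30 and 15 and 19 in Tcf21 P7. It was tested only through the 7-day groups, where it was high.

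Of 6 other genes listed as secreted antagonists, Frzb rose and Dkk3 fell. Frzb had 182 ± 24.2 CPM in Tcf21 P30 and 94.2 ± 7.33 CPM in Tcf21 P7 (log2 fold change 0.95 ± 0.13, adjusted p = 0.0013). Dkk3 had 313 ± 30.9 CPM in Tcf21 P30 and 563 ± 20.7 CPM in Tcf21 P7 (log2 fold change -0.85 ± 0.13, adjusted p = 0.0023). Kremen1, a membrane receptor for Dickkopf proteins, rose (log2 fold change 0.77 ± 0.13). Of 19 intracellular transducers, 2 rose and 6 fell. Among those that fell were Tnks, which marks Axin for degradation (-1.22 ± 0.11), the nuclear adaptor Pygo1 (-0.95 ± 0.21) and the signal transducer Dvl3 (-0.86 ± 0.14), given as log2 fold changes. None of 3 other TCF genes and neither of 2 ligand secretion genes was called.

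Between the lineages 6 of the 81 other Wnt genes were called, 3 higher and 3 lower in Postn P7, a share of 7.41% that lies below the 12% of all genes tested. None was called when either Tcf21 P7 library was left out, 3 without Postn P7 replicate 1, 1 without Postn P7 replicate 2, 16 without Tcf21 P30 replicate 1 and 22 without both first libraries that stood apart. Wisp1 had 55.1 ± 6.86 CPM in Postn P7 cells and 20.5 ± 0.954 CPM in Tcf21 P7 cells (SD, n = 2 each; log2 fold change 1.42 ± 0.22, adjusted p = 0.011). Tnfrsf19 had 28.5 ± 1.15 CPM in Postn P7 cells and 15.6 ± 0.399 CPM in Tcf21 P7 cells (log2 fold change 0.87 ± 0.16, adjusted p = 0.018). Trabd2b, a protease that inactivates Wnt ligands, was the third higher gene (log2 fold change 0.90 ± 0.18, adjusted p = 0.023). Lower genes were Ptk7 (-0.56 ± 0.13), Fzd8 (-0.55 ± 0.11) and Kremen1 (-0.63 ± 0.14), given as log2 fold changes. No other ligand, R-spondin axis gene, secreted antagonist, transducer, transcription factor or polarity gene was called.

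**Figure D4:**
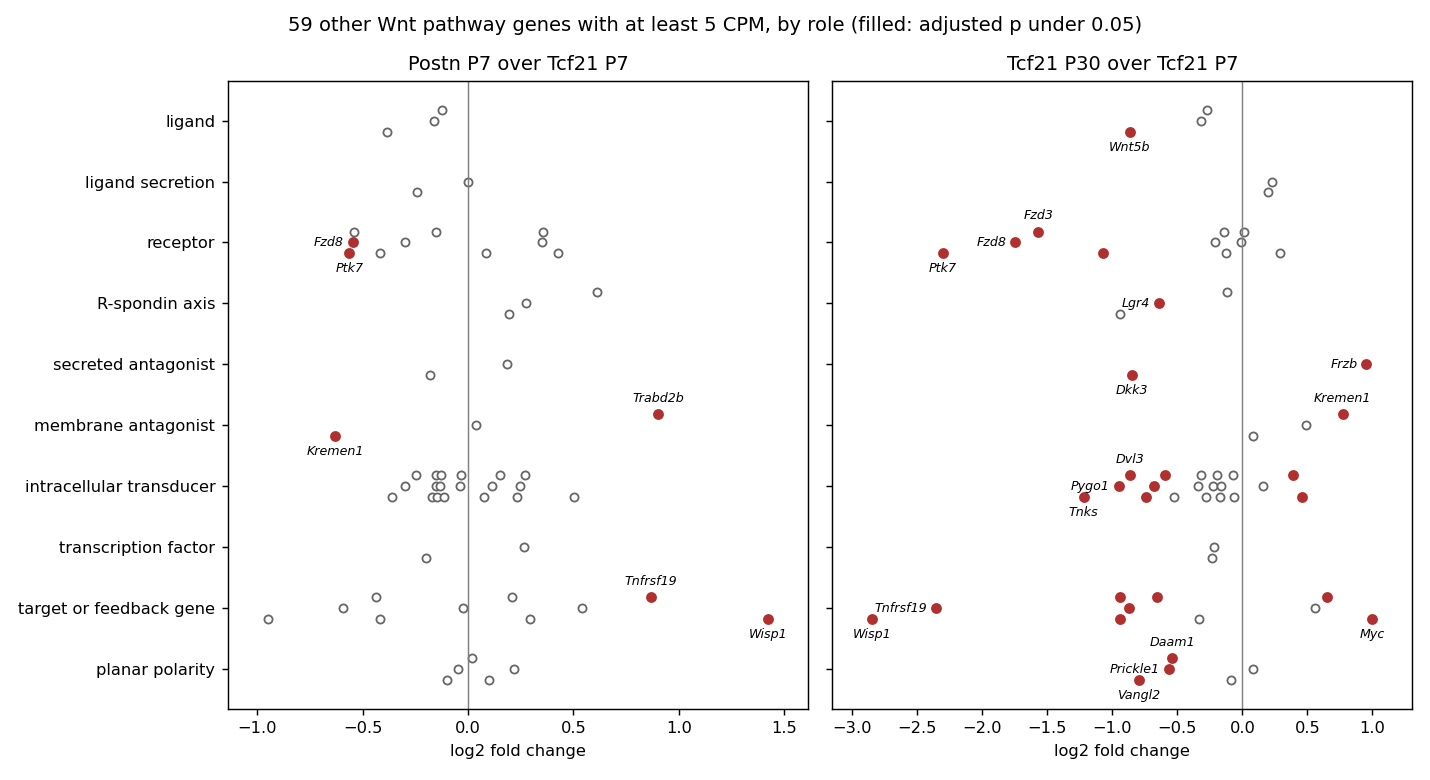
Log2 fold change (horizontal axis) of 59 other Wnt genes with at least 5 CPM in their highest group, by role (vertical axis), in Postn P7 over Tcf21 P7 (left) and Tcf21 P30 over Tcf21 P7 (right); filled points have an adjusted p under 0.05, and the named genes are those with the largest change per role. Of all 81 genes tested, 6 were called between the lineages and 30 between the ages, 23 of these 30 being lower in Tcf21 P30.

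Between Postn P7 and Tcf21 P30, 34 of the 81 were called, 30 higher and 4 lower in Postn P7, a share of 42.0%, and 21 were called without Postn P7 replicate 1. Of all genes tested 24.2% were called (11.7% higher and 12.5% lower), a split of 2070 higher and 2206 lower that became 2802 and 1725 with library size alone. Wisp1 (4.27 ± 0.22) and Tnfrsf19 (3.22 ± 0.16) had the largest log2 fold changes among targets, and Dact2, a modulator of the pathway, was lower (-1.51 ± 0.36). Receptors numbered 5 higher and 1 lower of 13, led by Fzd3 (2.00 ± 0.14), Ptk7 (1.74 ± 0.12) and Fzd8 (1.20 ± 0.10). In the R-spondin axis 4 of 7 were higher, among them the receptors Lgr6 (1.55 ± 0.41) and Lgr4 (0.83 ± 0.11). The rest of these 4 had at most 11 counts in any Tcf21 P30 library. They were tested only through the 7-day groups, where they were high. Frzb (-1.13 ± 0.13) and Kremen1 (-1.40 ± 0.13) were lower and Dkk3 (1.03 ± 0.13) was higher. Among ligands Wnt5b (0.70 ± 0.13) was higher, among transducers Tnks (0.98 ± 0.11), Dvl3 (0.83 ± 0.14) and Pygo1 (0.80 ± 0.21), and among factors Tcf7l2 (0.48 ± 0.11). The polarity genes Daam1 (0.76 ± 0.08), Vangl2 (0.75 ± 0.11) and Prickle1 (0.46 ± 0.13) were higher as well. The median log2 fold change was 0.35 for the 81, 0.44 for the 10 members and -0.01 for all genes.

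For each member, the 3 genes with the most similar pattern over the 7 libraries were listed by Pearson's r of log2(CPM + 1), among the other genes with a mean of at least 10 CPM, leaving out symbols of predicted, RIKEN or clone type (9948 genes for Rspo3, Lef1 and Axin2 and 9947 for the other members). The 7 points share 3 group means and the same libraries, so r is given as a description. Wnt11 was most like Epdr1 (r = 0.999), Nudt13 (r = 0.996) and Nox4 (r = 0.993). Sfrp2 was most like Pygb (r = 0.996), Col1a2 (r = 0.994) and Phb2 (r = 0.993), and Sfrp1 like Lgr4 (r = 0.994), Sema3d (r = 0.993) and Zbtb5 (r = 0.993). Col1a2, a collagen chain, had 6084 and 7448 CPM in the Postn P7 libraries, 4083, 4828 and 4588 CPM in Tcf21 P30 and 8666 and 8638 CPM in Tcf21 P7, so it was lowest at 30 days as Sfrp2 was. Wif1 was most like Tapbp (r = 0.998), Lpl (r = 0.997) and Agmo (r = 0.997), and Sfrp4 like Synj2 (r = 0.994), F2r (r = 0.991) and Krr1 (r = 0.990). Fzd2 was most like Dtymk (r = 0.999), Ptprs (r = 0.996) and Slc7a5 (r = 0.994), and Fzd1 like Bcat1 (r = 0.992), Nop16 (r = 0.981) and Tsr1 (r = 0.980). Lef1 was most like Filip1l (r = 0.995), Rbm4b (r = 0.991) and Rad18 (r = 0.991), and Rspo3 like Tiam2 (r = 0.976), Foxc2 (r = 0.976) and Nemp2 (r = 0.975). Axin2 was most like Dcaf13 (r = 0.952), Mrps22 (r = 0.939) and Mrps26 (r = 0.918), at lower coefficients than the others.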

How the data were processed

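The authors deposited raw counts per gene symbol for 7 libraries, 1 column each, with no normalization. Per the labels' protocols, green cells were sorted and RNA was sequenced; per the submitters' processing notes, reads were aligned with STAR to GRCm38. Counting program, annotation release and strand setting: not given in the sources used here. Of 54735 symbols, 21563 had no count, and 17636 genes passed filterByExpr.

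A single model with a mean for each group was fitted to the 7 libraries in edgeR 4.0.16 (R 4.3.3, TMM scaling, robust quasi-likelihood F-test), with Benjamini-Hochberg adjustment over all genes tested and a threshold of 0.05. The SE was computed from F (the size of the log2 fold change over the root of F) and so restates the test. Alternatives were limma-voom (limma 3.58.1), DESeq2 1.42.0, other scalings, no filter, fewer libraries and a replicate block. Genes named besides the 10 were the called genes with the largest change per role, up to 3, at 5 CPM or more in whichever group was higher. The members, the gene lists and the rule were chosen with earlier results of these data known.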

Additional observations from a re-analysis of the deposited data

How the results depend on the processing

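Over 17 alternatives and 30 member values, 442 kept direction and side of the threshold, 32 lost the call, 25 gained it and 10 changed sign. Between Postn P7 and Tcf21 P7, 3 members were called; 6 were called with no filter on low counts, 5 with limma-voom, 5 with only the 2 groups compared, and 0 with the Tcf21 P7 libraries summed (all genes 123). Of the other Wnt genes 6 were called, against 17 with no filter, 14 with only the 2 groups and 0 with the libraries summed; all genes gave 2118, and 3442 with no filter. Leaving out libraries gave 0 to 6 members, 0 to 22 other Wnt genes and 111 to 3750 of all genes. In the comparison of Tcf21 P30 with Tcf21 P7, summing gave 19 other Wnt genes and 2463 of all genes, and leaving out libraries gave 5 to 8 members, 18 to 43 other Wnt genes and 2418 to 7344 of all genes. Between Postn P7 and Tcf21 P30 the ranges were 7 to 8, 21 to 41 and 2810 to 5072. Signs that turned with a library left out were those of Sfrp1 (-0.012 to 0.34) and Axin2 (-0.67 to 0.13) between Postn P7 and Tcf21 P7, Axin2 (-0.13 to 0.20) between the ages, and Fzd1 (-0.082 to 0.33) and Axin2 (-0.86 to 0.13) between Postn P7 and Tcf21 P30. Axin2 between the ages also turned with limma-voom (-0.012) and the replicate block (-0.047). The cause of these shifts was not tested.

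Library size alone in place of TMM moved the median log2 fold change of all genes by 0.11 in both comparisons of Postn P7, and the members called between the lineages were then 4 higher and 0 lower (2 and 0 with upper-quartile factors), against 2 and 1 with TMM. All genes there split 1741 higher and 472 lower (1187 and 647 with upper-quartile factors), against 1149 and 969. Against Tcf21 P30 all genes split 2802 and 1725, against 2070 and 2206. Equal replicate numbers share no stated litter or day, and deviations of equally numbered libraries correlated across genes by 0.08 (Postn P7 with Tcf21 P7), 0.29 and 0.31 (Postn P7 with Tcf21 P30), and 0.05 and 0.04 (the ages). In a group of 2 libraries the deviations from the mean are mirror images. So values that share such a group are not independent, and exchanging its libraries turns their sign. With the replicate block 2, 7 and 8 members were called in the comparisons of lineages, of ages, and of Postn P7 with Tcf21 P30; all genes gave 1556, 4553 and 3348. Between the lineages Fzd2 (adjusted p = 0.065) and Rspo3 (0.064) lost their calls with it and Sfrp2 (0.048) gained one; between the ages Lef1 (0.07) lost and Fzd1 (0.034) gained one. Rspo3 between the ages did not pass the filter with only the 2 groups, so it has no value there. Rspo3, Lef1 and Axin2 had at most 76 counts in any library, which limits what could be detected for them.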
